A study of Schmidtea mediterranea with 5 samples.

Results

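Cells of post-pharyngeal fragments taken right after amputation (0 hpa, hours post amputation) were compared with cells of anterior-facing wounds at 16 hpa, in whole libraries and within muscle, neuron, intestine, neoblast and epidermal-lineage cells. The cells were barcodes with 200 to 2500 genes and at least 1000 UMIs (unique molecular identifiers, counted transcripts), which gave 16180 of the 23946 cells of the series. Of these, 4079 and 6935 cells came from the 16 hpa anterior-facing libraries and 5166 from the 0 hpa library. The study asked how the asexual planarian *Schmidtea mediterranea* (strain CIW4) starts to regenerate, and sequenced 5 droplet-based scRNA-seq libraries of pooled animals. Replicate 1 of the 16 hpa anterior-facing wounds came from animals without RNAi. Replicate 2 came from animals fed 4 times with double-stranded RNA against unc-22, a gene planarians lack, so that feeding and replicate cannot be told apart. The 0 hpa animals had no RNAi. All 3 libraries were sorted with Hoechst as X-insensitive cells, a DNA content gate for cells that X-rays spare. The labels give all 3 as low in propidium iodide, a dye that enters dying cells, whereas the methods name the dye for the 0 hpa library and replicate 1 but not for replicate 2, so that the replicates may also differ in this sort. The labels give the later time as 18 hpa, and 16 hpa is written here, the time in the study's text. The 0 hpa group is a single library, so that any trait of that library or its sort and the time after amputation cannot be told apart.

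Planarians rebuild missing tissue from neoblasts, the dividing cells of the body, and the tissues already in the fragment change as well. Amputation switches on wound-induced genes, and muscle is known both for such a response and for expressing the genes that mark position along the body axes. The intestine, nervous system and epidermis have also been described as transcriptionally responsive to injury.

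The matrices held between 31290865 and 37981205 UMIs per library for these 3 libraries, and the median cell had between 3643 and 4085 UMIs. Cells were clustered with those of the 16 hpa posterior-facing wound, and clusters were given a class from lists of marker contigs. This left 523 and 652 muscle-like cells at 16 hpa, against 420 at 0 hpa, and 784 and 1111 neuron-like cells at 16 hpa, against 720 at 0 hpa. There were 513 and 766 intestine-like cells at 16 hpa, against 699 at 0 hpa, 204 and 320 neoblast-like cells at 16 hpa, against 259 at 0 hpa, and 1289 and 3276 epidermal-lineage-like cells at 16 hpa, against 2223 at 0 hpa. Marker support for the intestine-like class was thin in places. Its largest cluster (7, 1013 cells with the posterior-facing ones) was marked by 3 of 14 intestine and 2 of 12 neoblast markers detected. Cluster 25 was marked by 3 of 14 intestine and 2 of 7 parenchyma markers, and cluster 26 by 8 of 14 intestine markers. At 0 hpa the class held 119 cells under 10% mitochondrial UMIs and 978 at clustering resolution 0.5. The 16 muscle markers summed to 18761 and 9521 CPM (counts scaled to 1000000 UMIs in total) in muscle-like cells at 16 hpa, against 21328.5 CPM at 0 hpa. The 12 neoblast markers summed to 3501 and 3328 CPM in neoblast-like cells at 16 hpa, against 3689 CPM at 0 hpa, although the gate was set for cells that X-rays spare. The 15 intestine markers summed to 929.5 and 1081.7 CPM in intestine-like cells at 16 hpa, against 1524 CPM at 0 hpa, and the 22 neuron markers to 1140 and 1044 CPM in neuron-like cells at 16 hpa, against 1303 CPM at 0 hpa. Free RNA, read from barcodes with under 100 UMIs, held 244.2 and 214.2 CPM of the intestine markers at 16 hpa, against 1198 CPM at 0 hpa. Both 0 hpa sums of intestine markers include dd_Smed_v6_122_0. Nearly all of its UMIs in intestine-like cells at 0 hpa lay in a single cell, and its counts in cells and free RNA are given below. Pairs of these libraries shared between 5 and 11 cell barcodes. No doublets were removed. The doublet caller marked at most 0.484% of a library and 0 cells of replicate 1. It was taken not to have worked, so that doublets may remain among the cells.

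For each contig, the UMIs of a class were added up within each library, and the 16 hpa libraries were tested against 0 hpa with edgeR's quasi-likelihood test, adjusted over all contigs tested. The lone 0 hpa library was assumed to vary like the 2 anterior ones, which left 1 residual degree of freedom. A contig is said to have risen or fallen only where this adjusted p was under 0.05. A fold rule was read beside it, as a description: at least 2-fold the same way in both anterior libraries, with the exact 95% interval of each ratio, which covers counting error only, leaving out 1. Where 2 values are given for 16 hpa they are those of replicate 1 and replicate 2. Numbers of cells say from how many cells the UMIs of a contig came and are not compared as shares. Human names are best matches from the part of the paper's supplement that was read, which pairs 706 contigs of the matrices with a name. Names for the same contigs disagree with another of its tables, so that each name is in doubt and the contig is the identity.

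Over all cells, edgeR called 0 of 17900 contigs (0.0% higher and 0.0% lower), with 966 at an unadjusted p under 0.05 and 78 calls by DESeq2. The fold rule held for 263 contigs that were higher (1.64%) and 254 that were lower (1.59%). The 2 anterior libraries themselves were at least 2-fold apart at 1542 contigs, and the median size of the log2 ratio was 0.28 between them and 0.27 between their mean and 0 hpa. Within muscle-like cells the 2 medians were 0.26 between the anterior libraries and 0.43 against 0 hpa, within neuron-like cells 0.24 and 0.32, within intestine-like cells 0.33 and 0.27, and within neoblast-like cells 0.25 and 0.30. Only in the intestine-like class of these 4 was the spread between the anterior libraries the larger value. In muscle-like cells 0 contigs rose (0.0%) and 4 of 9976 fell (0.0401%), although 2142 had an unadjusted p under 0.05 and DESeq2 called 87. In the same cells 411 contigs were past the fold rule upwards (4.93%) and 508 downwards (6.09%). In neuron-like cells 49 of 11772 contigs rose (0.416%) and 108 fell (0.917%), while 152 (1.54%) and 238 (2.41%) were past the fold rule. In intestine-like cells 72 of 10388 contigs rose (0.693%) and 46 fell (0.443%), while 147 (1.65%) and 91 (1.02%) were past the fold rule. In neoblast-like cells 154 of 8862 contigs rose (1.74%) and 228 fell (2.57%), while 84 (1.15%) and 171 (2.35%) were past the fold rule. In epidermal-lineage-like cells 342 of 13085 contigs rose (2.61%) and 186 fell (1.42%), while 316 (2.73%) and 120 (1.04%) were past the fold rule. Counts of calls moved by over 1.5 times with the scaling, the cell filter or a single cell, in muscle-like cells between 0 and 1503. Counts past the fold rule moved less, but some single directions also moved by over 1.5 times. With every cluster given the same share in each library, 346 contigs were higher and 304 lower in muscle-like cells (53.2% higher, against 44.7% as reported), and 242 and 431 over all cells (36% against 50.9%). With no upper limit on genes per cell, 262 were higher and 504 lower over all cells (34.2% higher), and 145 and 173 in intestine-like cells (45.6% higher, against 61.8% as reported).

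**Figure D1:**
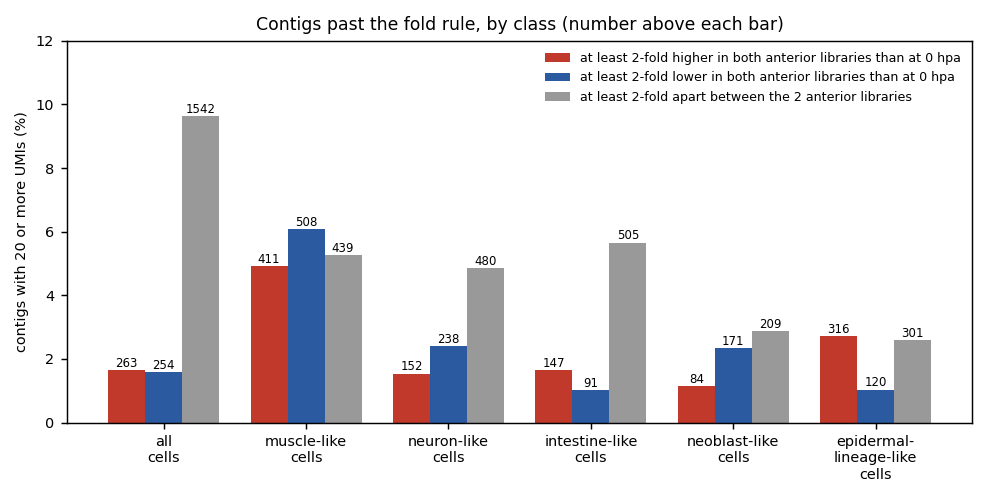
Share of contigs with at least 20 UMIs (vertical axis, %) that were at least 2-fold higher or lower in both 16 hpa anterior-facing libraries than at 0 hpa, beside the share at least 2-fold apart between the 2 anterior libraries, for all cells and 5 classes, with the number of contigs above each bar. In muscle-like cells 411 contigs were higher and 508 lower, against 439 apart between the anterior libraries, whereas over all cells 263 and 254 stood beside 1542.

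Some contigs were past the fold rule in several classes, which are parts of the same 3 libraries and share the single 0 hpa library, so that the classes are not independent of each other. Past the rule, 28 contigs were higher in at least 3 of the 5 classes, 11 of them in 4, and 28 were lower in at least 3, 4 of them in 4 and 1 in all 5. All 28 higher contigs rose by edgeR's test in at least 1 class, and 27 of the 28 lower ones fell in at least 1. Of all contigs tested in a class, at most 2.61% rose and at most 2.57% fell. The rule that chose these contigs and the test read the same counts, so that the calls are not separate support. The fold rule in 3 classes was kept by 23 of the higher and 26 of the lower contigs when the cell with the most UMIs of each contig was taken off, and by 25 and 26 when free RNA was taken off. None of the 16 contigs past the rule in 4 or 5 classes has a human name in the part of the supplement read.

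Contig dd_Smed_v6_158_0 was higher in every class. It had 373 and 306 CPM in muscle-like cells at 16 hpa, against 31.8 CPM at 0 hpa, from 282 and 348 cells at 16 hpa, against 31 at 0 hpa. It rose in neuron-like cells to 149 and 115.4 CPM at 16 hpa, against 37.9 CPM at 0 hpa (edgeR, adjusted p = 0.00519), and in the epidermal lineage to 71.9 and 91.1 CPM at 16 hpa, against 1.62 CPM at 0 hpa (adjusted p = 5.27e-11). Both anterior libraries lay above 0 hpa in each of these, as the rule that chose the contig requires. It also rose in intestine-like cells, to 21.6 and 20.8 CPM at 16 hpa, against 3.44 CPM at 0 hpa, and in neoblast-like cells, to 291 and 199 CPM at 16 hpa, against 109.5 CPM at 0 hpa, where only replicate 1 was 2-fold higher. Its edgeR log2 fold change was 5.65 ± 0.33 (SE) in epidermal-lineage-like cells and 1.15 ± 0.25 in neoblast-like cells. The change was smaller in neoblast-like cells than in all other cells of the same libraries (difference of log2 changes -2.62, edgeR interaction, adjusted p = 4.24e-14). Free RNA held 137 and 112 CPM of it at 16 hpa, against 17.3 CPM at 0 hpa, and the fold rule held in the 4 classes with free RNA taken off.

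Contig dd_Smed_v6_585_0 was an abundant transcript with the same direction in every class. In muscle-like cells it had 1888 and 1754 CPM at 16 hpa, against 405 CPM at 0 hpa, from 453 and 599 cells at 16 hpa, against 205 at 0 hpa (edgeR, adjusted p = 0.0739). It rose in neoblast-like cells to 1029 and 794 CPM at 16 hpa, against 245 CPM at 0 hpa (adjusted p = 1.14e-11), and in intestine-like cells to 68.2 and 51.1 CPM at 16 hpa, against 14.4 CPM at 0 hpa (adjusted p = 5.61e-04). Neuron-like cells stood apart, with 1041 and 739.7 CPM at 16 hpa, against 400.1 CPM at 0 hpa, below 2-fold in replicate 2. The difference from the change in all other cells was -1.86 on the log2 scale there (edgeR interaction, adjusted p = 5.78e-06).

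Contig dd_Smed_v6_280_0 rose in neoblast-like cells, to 1322 and 1480 CPM at 16 hpa, against 389 CPM at 0 hpa, and in epidermal-lineage-like cells, to 1294 and 1486 CPM at 16 hpa, against 612 CPM at 0 hpa (edgeR, adjusted p = 1.56e-11 and 0.00215). In intestine-like cells it had 694 and 641 CPM at 16 hpa, against 410.2 CPM at 0 hpa, which passed neither the test nor the fold rule. Contig dd_Smed_v6_2221_0 rose in 3 classes and had 239 and 207 CPM in muscle-like cells at 16 hpa, against 59.2 CPM at 0 hpa. Values in neoblast-like cells were 315 and 277 CPM at 16 hpa, against 116 CPM at 0 hpa, and in neuron-like cells 195 and 189 CPM at 16 hpa, against 76.9 CPM at 0 hpa. Replicates 1 and 2 lay close together for both contigs, and both lay above 0 hpa in each class named.

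Contig dd_Smed_v6_1531_0 rose in neoblast-like cells to 255 and 193 CPM at 16 hpa, against 41.6 CPM at 0 hpa, in neuron-like cells to 131 and 108 CPM at 16 hpa, against 24.7 CPM at 0 hpa, and in epidermal-lineage-like cells to 33.2 and 33.5 CPM at 16 hpa, against 3.34 CPM at 0 hpa. Contig dd_Smed_v6_13347_0 rose in neuron-like cells to 40.3 and 74.7 CPM at 16 hpa, against 14.3 CPM at 0 hpa, and in intestine-like cells to 40.5 and 42.3 CPM at 16 hpa, against 13.7 CPM at 0 hpa. Contig dd_Smed_v6_3086_0 rose in neoblast-like cells to 67.4 and 74.6 CPM at 16 hpa, against 3.62 CPM at 0 hpa (edgeR log2 fold change 4.26 ± 0.51, SE, adjusted p = 8.99e-14). It also rose in epidermal-lineage-like cells, to 145 and 179.8 CPM at 16 hpa, against 8.96 CPM at 0 hpa. Since the fold rule chose these contigs and classes, both anterior libraries lie above 0 hpa in each by construction.

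**Figure D2:**
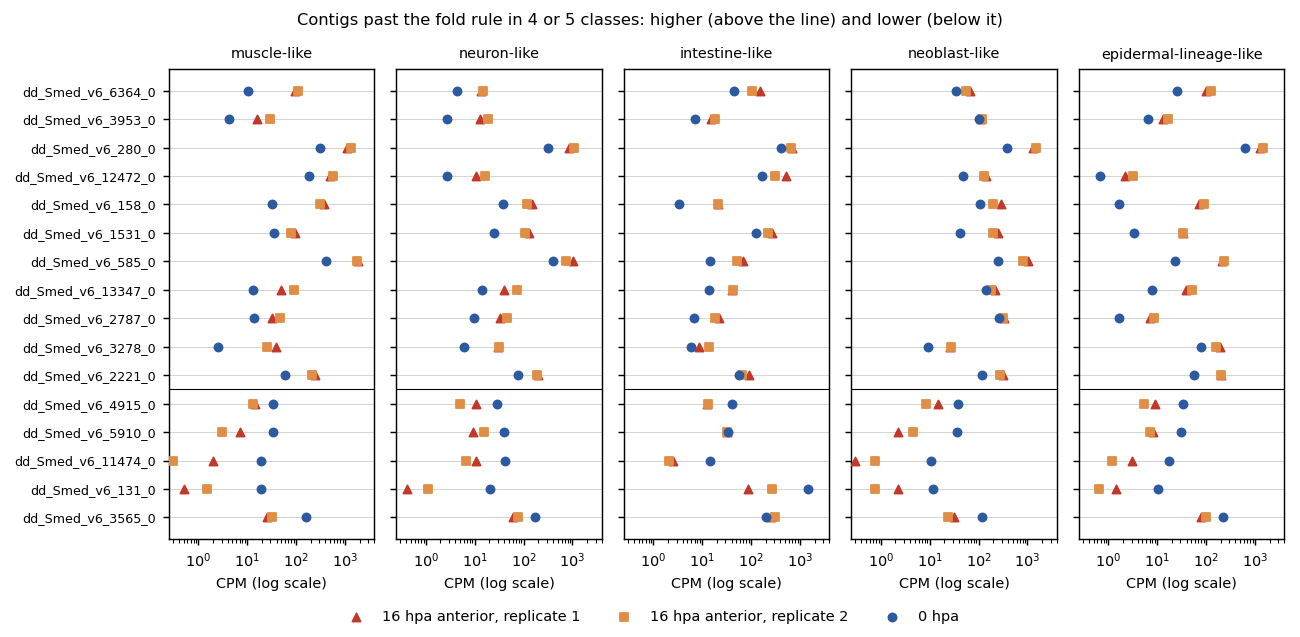
Level of the 16 contigs past the fold rule in 4 or 5 classes (horizontal axis, CPM, log scale) in each of the 3 libraries and 5 classes, with 11 higher contigs above the line and 5 lower contigs below it; values under the axis are drawn at its left edge. The 0 hpa point of dd_Smed_v6_158_0 lies at 31.8 CPM in muscle-like cells and at 1.62 CPM in epidermal-lineage-like cells, left of both anterior points in each class.

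Among the contigs that were lower, dd_Smed_v6_4915_0 was past the fold rule in all 5 classes and fell by edgeR's test in 3. It had 12.3 and 13.2 CPM in intestine-like cells at 16 hpa, against 40.9 CPM at 0 hpa (adjusted p = 0.00110), 14.9 and 8.29 CPM in neoblast-like cells at 16 hpa, against 38.0 CPM at 0 hpa (adjusted p = 0.00395), and 9.21 and 5.36 CPM in the epidermal lineage at 16 hpa, against 33.5 CPM at 0 hpa (adjusted p = 7.72e-07). In muscle-like cells it had 14.7 and 13.1 CPM at 16 hpa, against 33.5 CPM at 0 hpa, and in neuron-like cells 10.9 and 5.13 CPM at 16 hpa, against 28.0 CPM at 0 hpa. Levels were alike in the classes and in free RNA, which held 11.3 and 9.14 CPM at 16 hpa, against 38.0 CPM at 0 hpa.

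Contig dd_Smed_v6_3565_0 fell in neoblast-like cells to 30.9 and 24.1 CPM at 16 hpa, against 117 CPM at 0 hpa, and in neuron-like cells to 60.0 and 77.3 CPM at 16 hpa, against 168 CPM at 0 hpa (edgeR, adjusted p = 1.36e-10 and 0.0160). In muscle-like cells it had 25.4 and 32.3 CPM at 16 hpa, against 159 CPM at 0 hpa, and its change was lower than in all other cells (difference -1.65 on the log2 scale, edgeR interaction, adjusted p = 1.29e-07). Contig dd_Smed_v6_7731_0 fell in neoblast-like cells to 135 and 164 CPM at 16 hpa, against 809 CPM at 0 hpa, and had 327 and 174 CPM in muscle-like cells at 16 hpa, against 1186 CPM at 0 hpa. Contig dd_Smed_v6_11474_0 fell in neuron-like cells to 10.5 and 6.60 CPM at 16 hpa, against 41.2 CPM at 0 hpa, and in intestine-like cells to 2.57 and 2.14 CPM at 16 hpa, against 14.8 CPM at 0 hpa. For dd_Smed_v6_131_0, also lower in 4 classes, free RNA held 40.5 and 30.6 CPM at 16 hpa, against 1496 CPM at 0 hpa. Apart from the count above with free RNA taken off, the part of free RNA in this result was not tested.

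Muscle-like cells had the most contigs past the fold rule of the classes described, with only 4 that fell and 0 that rose by edgeR's test. Of the 4, only dd_Smed_v6_5753_0 rested on many cells. It fell to 9.64 and 9.08 CPM at 16 hpa, against 104 CPM at 0 hpa, from 19 and 14 cells at 16 hpa, against 95 cells at 0 hpa (edgeR log2 fold change -3.46 ± 0.28, SE, adjusted p = 0.0279). Its change was lower in muscle-like cells than in all other cells (difference -2.97 on the log2 scale, edgeR interaction, adjusted p = 1.28e-09). The other 3 rested on single cells at 0 hpa. A single cell held nearly all of the 350 UMIs of dd_Smed_v6_1117_0, 72 of the 72 UMIs of dd_Smed_v6_8091_0, and 70 of the 71 UMIs of dd_Smed_v6_10_1, whose human name COLEC10 is a secreted collagen-like lectin. With that cell taken off, dd_Smed_v6_1117_0 had an adjusted p of 0.601, and the other 2 had too few UMIs to be tested.

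The highest muscle contigs past the fold rule were nearly silent at 0 hpa. Contig dd_Smed_v6_17168_1 had 39.1 and 52.9 CPM at 16 hpa, from 66 and 89 cells, against 0 UMIs at 0 hpa, which is at least 15.2-fold and 20.6-fold higher when set against 3 UMIs in the 0 hpa library (edgeR, adjusted p = 0.0597). Contig dd_Smed_v6_5161_0 had 262 and 141 CPM at 16 hpa, against 3.43 CPM at 0 hpa, from 127 and 130 cells at 16 hpa, against 4 cells at 0 hpa (adjusted p = 0.0626). Contig dd_Smed_v6_25893_0 had 27.4 and 26.2 CPM at 16 hpa, against 0.859 CPM at 0 hpa. All 3 were higher in both anterior libraries in each of the 3 muscle clusters. The change of dd_Smed_v6_5161_0 was 4.45 higher on the log2 scale in muscle-like cells than in all other cells (edgeR interaction, adjusted p = 1.69e-13). In the opposite direction dd_Smed_v6_39877_0 had 0 UMIs in both anterior libraries, against 25.8 CPM from 21 cells at 0 hpa.

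Among muscle contigs with a human name, only COLEC10 was called, which rested on a single cell at 0 hpa as given above. The following values are a description. TCP1 (dd_Smed_v6_1025_0), a subunit of the chaperonin that folds actin and tubulin, had 493 and 505.2 CPM at 16 hpa, against 216 CPM at 0 hpa (edgeR, adjusted p = 0.102). UBE2N (dd_Smed_v6_1075_0), a ubiquitin-conjugating enzyme, had 116 and 112 CPM at 16 hpa, against 50.7 CPM at 0 hpa. ATP2A2 (dd_Smed_v6_1006_0), the calcium pump of the sarcoplasmic reticulum, had 260.2 and 263 CPM at 16 hpa, against 113 CPM at 0 hpa. The anterior replicates differed little in these 3. HSPG2 (dd_Smed_v6_1054_0), the basement membrane proteoglycan perlecan, had 11.2 and 15.1 CPM from 3 and 10 cells at 16 hpa, against 0 UMIs at 0 hpa, while free RNA held 194 and 288 CPM at 16 hpa, against 55.9 CPM at 0 hpa. Without the cell with the most UMIs it no longer passed the fold rule.

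The named contigs that were lower past the fold rule included 3 of the 10 matrix members tested and 2 of the 11 contraction members, with 1 member of each list higher past it and 0 called. The synapse and channel list had 2 of 12 lower and 0 higher past it. Of all muscle contigs with at least 20 UMIs, 6.09% were lower and 4.93% higher past the rule. Replicate 2 lay below replicate 1 in each of the first 4 given here. SPARCL1 (dd_Smed_v6_1021_0), a matricellular protein, had 214 and 74.6 CPM at 16 hpa, against 714 CPM at 0 hpa (edgeR, adjusted p = 0.104). COL2A1 (dd_Smed_v6_1070_0), a fibrillar collagen, had 808 and 303 CPM at 16 hpa, against 2164 CPM at 0 hpa (adjusted p = 0.130). LDB3 (dd_Smed_v6_10318_0), a Z-disc protein, had 19.3 and 4.03 CPM at 16 hpa, against 93.6 CPM at 0 hpa. FBN2 (dd_Smed_v6_10142_0), a microfibril protein, had 24.4 and 11.1 CPM at 16 hpa, against 61.8 CPM at 0 hpa. The change of SPARCL1 and of COL2A1 was lower in muscle-like cells than in all other cells, by -2.20 and -1.44 on the log2 scale (edgeR interaction, adjusted p = 7.27e-05 and 6.60e-04). ANKRD6 (dd_Smed_v6_10764_0), which in vertebrates acts in Wnt signalling, had 53.8 and 32.8 CPM at 16 hpa, against 153 CPM at 0 hpa. CREB3L1 (dd_Smed_v6_1032_0), a membrane-bound transcription factor of secretory cells, had 167 and 96.3 CPM at 16 hpa, against 364 CPM at 0 hpa. GPRIN1 (dd_Smed_v6_10294_0) had 37.5 and 39.3 CPM at 16 hpa, against 133 CPM at 0 hpa. SPARCL1, COL2A1, LDB3 and ATP2A2 belong to the marker list that named the class. Cluster 12 held 208 of 523 and 305 of 652 muscle-like cells at 16 hpa, against 80 of 420 at 0 hpa, where cluster 11 held 241. With every cluster given the same share, COL2A1, FBN2, ANKRD6, CREB3L1 and, among the higher contigs, the histone H1FOO (dd_Smed_v6_10594_0) no longer passed the fold rule, and 291 and 254 of the 411 and 508 contigs did.

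**Figure D3:**
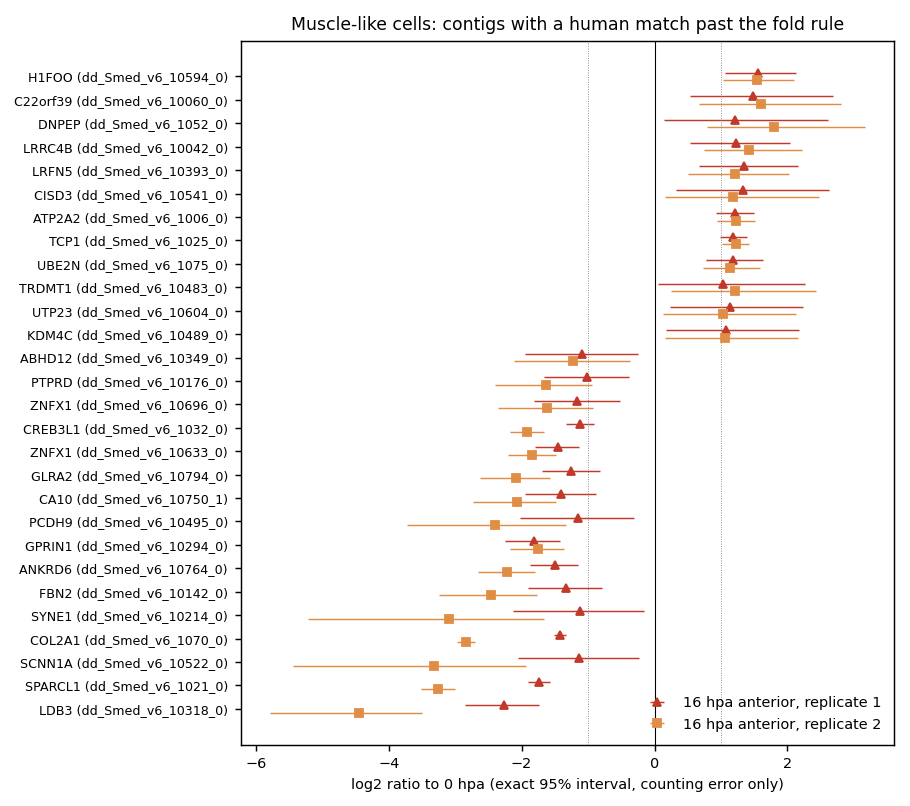
Log2 ratio of each 16 hpa anterior-facing library to 0 hpa in muscle-like cells (horizontal axis, points with exact 95% intervals for counting error only) for contigs with a human name past the fold rule and over 3 UMIs in each library; dotted lines mark 2-fold. The points of TCP1, ATP2A2 and UBE2N of both replicates nearly coincide, while those of LDB3, SPARCL1 and COL2A1 lie farther left in replicate 2.

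*bmp4* (dd_Smed_v6_17402_0), a secreted signal of the dorsal side and one of the muscle markers, had 25.4 and 24.2 CPM in muscle-like cells at 16 hpa, against 23.2 CPM at 0 hpa (edgeR log2 fold change 0.10 ± 0.32, SE, adjusted p = 0.886). Its UMIs came from 29 and 33 muscle-like cells at 16 hpa, against 19 at 0 hpa. *equinox* (dd_Smed_v6_20318_0), the gene the study followed, was counted in only 3 and 6 muscle-like cells at 16 hpa, against 0 at 0 hpa, too few UMIs to be tested.

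In neuron-like cells dd_Smed_v6_1350_0 rose to 204 and 167 CPM at 16 hpa, against 43.4 CPM at 0 hpa, from 208 and 276 cells at 16 hpa, against 52 at 0 hpa (edgeR log2 fold change 2.10 ± 0.27, SE, adjusted p = 0.00159), and was higher in both anterior libraries in 5 of 5 clusters. Its change was 1.80 higher on the log2 scale than in all other cells (edgeR interaction, adjusted p = 5.08e-05). Contig dd_Smed_v6_416_0 rose to 558 and 415 CPM at 16 hpa, against 101 CPM at 0 hpa, and dd_Smed_v6_1636_0 to 242 and 188 CPM at 16 hpa, against 48.4 CPM at 0 hpa. The last 2 were lower in both anterior libraries in 2 of 5 clusters each. Contig dd_Smed_v6_3278_0 rose to 30.6 and 31.5 CPM at 16 hpa, against 6.05 CPM at 0 hpa, and dd_Smed_v6_4035_0 to 31.9 and 35.2 CPM at 16 hpa, against 8.24 CPM at 0 hpa.

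The largest neuronal rise in UMIs was held by few cells. Contig dd_Smed_v6_91_0 rose to 2964 and 1817 CPM at 16 hpa, against 168 CPM at 0 hpa, and single cells held 2703 of 7061 and 1172 of 4958 UMIs at 16 hpa, and nearly all of 306 UMIs at 0 hpa. Taking those cells off removed nearly all of its UMIs at 0 hpa and a smaller part at 16 hpa. A rise without them was thus fixed beforehand and is no further support. Free RNA held 381 and 1922 CPM of it at 16 hpa, against 59.2 CPM at 0 hpa.

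On the lower side, ERBB4 (dd_Smed_v6_10499_0), a receptor tyrosine kinase for neuregulins in vertebrates, fell in neuron-like cells to 3.36 and 6.96 CPM at 16 hpa, against 53.9 CPM at 0 hpa, from 6 and 9 cells at 16 hpa, against 23 at 0 hpa (edgeR log2 fold change -3.35 ± 0.39, SE, adjusted p = 7.82e-04). ANKRD6 (dd_Smed_v6_10764_0) fell to 13.9 and 10.6 CPM at 16 hpa, against 36.3 CPM at 0 hpa (adjusted p = 0.0375), the same direction as in muscle-like cells. TMPRSS3 (dd_Smed_v6_10267_0), a transmembrane serine protease, fell to 23.9 and 13.9 CPM at 16 hpa, against 52.8 CPM at 0 hpa (adjusted p = 0.0333). Contig dd_Smed_v6_12035_0 fell to 5.88 and 10.6 CPM at 16 hpa, against 245 CPM at 0 hpa, where its 445 UMIs came from 19 cells and at most 42 from 1 of them. These 4 kept their call without the cell with the most UMIs. By contrast, 1506 of the 1509 UMIs of dd_Smed_v6_1933_0 in neuron-like cells at 0 hpa lay in 1 cell, without which its log2 fold change was 1.003, and dd_Smed_v6_254_0 had 0 UMIs at 16 hpa and 12.1 CPM at 0 hpa, while free RNA held 10.4 and 3.65 CPM of it at 16 hpa, against 885 CPM at 0 hpa. Of the 238 contigs past the fold rule downwards in neuron-like cells, 191 were also past it without the cell with the most UMIs.

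In intestine-like cells dd_Smed_v6_6399_0 rose to 152 and 197 CPM at 16 hpa, against 27.1 CPM at 0 hpa, from 185 and 361 cells at 16 hpa, against 71 at 0 hpa (edgeR log2 fold change 2.69 ± 0.52, SE, adjusted p = 6.34e-05). It was higher in all 4 clusters with at least 5 UMIs, and its change was 1.79 higher on the log2 scale than in all other cells (edgeR interaction, adjusted p = 1.95e-04). Contigs with human names rose as well. ADAMTS20 (dd_Smed_v6_10259_0), a secreted metalloprotease of the matrix, rose to 15.9 and 7.35 CPM at 16 hpa, against 0.687 CPM at 0 hpa, where 2 UMIs were counted (adjusted p = 8.67e-04). PDE8A (dd_Smed_v6_10593_0), a cyclic AMP phosphodiesterase, rose to 25.1 and 21.1 CPM at 16 hpa, against 4.81 CPM at 0 hpa (adjusted p = 5.59e-04). CTNNAL1 (dd_Smed_v6_10625_0), an alpha-catenin-like protein, rose to 142 and 50.8 CPM at 16 hpa, against 16.5 CPM at 0 hpa (adjusted p = 1.42e-05), but its log2 fold change was -0.74 with no upper limit on genes per cell, against 2.53 as reported. Replicates 1 and 2 differed by more for ADAMTS20 and CTNNAL1 than for PDE8A.

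HSPG2 rose in intestine-like cells to 273 and 77.5 CPM at 16 hpa, against 26.8 CPM at 0 hpa (edgeR, adjusted p = 5.70e-05), and kept the call without the cell with the most UMIs. Free RNA, given above, also held more of it at 16 hpa than at 0 hpa, and more than the class in replicate 2. HSPG2 was among the contigs that most marked the unnamed cluster 4 and the parenchyma cluster 22, and no intestine-like cluster. The part of free RNA or of other cell types in its rise was not tested. SNAI2 (dd_Smed_v6_10216_0), a zinc-finger repressor of the Snail family, rose to 14.4 and 19.6 CPM at 16 hpa, against 4.47 CPM at 0 hpa (adjusted p = 0.0162). TAT (dd_Smed_v6_1073_0), tyrosine aminotransferase and an intestine marker, rose to 55.4 and 16.2 CPM at 16 hpa, against 8.93 CPM at 0 hpa (adjusted p = 0.00120), below 2-fold in replicate 2, and its log2 fold change was -0.69 at clustering resolution 0.5, against 1.95 as reported. NOG (dd_Smed_v6_10386_0), a secreted BMP antagonist, had 4.10 and 7.96 CPM at 16 hpa, against 0.687 CPM at 0 hpa, and was not called (adjusted p = 0.223). COLEC10 (dd_Smed_v6_10_1) rose to 405 and 326 CPM at 16 hpa, against 89.3 CPM at 0 hpa, from 18 and 37 cells at 16 hpa, against 13 at 0 hpa (adjusted p = 0.0259), and no longer passed the fold rule with equal cluster shares.

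CA10 (dd_Smed_v6_10750_1), a carbonic anhydrase-related protein, went opposite ways in 2 classes. In intestine-like cells it rose to 16.9 and 11.6 CPM at 16 hpa, against 1.37 CPM at 0 hpa, from 28 and 33 cells at 16 hpa, against 4 at 0 hpa (edgeR, adjusted p = 3.45e-04). In muscle-like cells it had 25.9 and 16.1 CPM at 16 hpa, against 68.7 CPM at 0 hpa (adjusted p = 0.0816). Against all other cells its change was 3.73 higher on the log2 scale in intestine-like cells and -1.90 in muscle-like cells (edgeR interaction, adjusted p = 5.99e-05 and 8.56e-05). It was 1 of 27 contigs past the fold rule upwards in 1 class and downwards in another.

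Many of the strongest falls in intestine-like cells came from 1 cell. At 0 hpa a single cell held 1608 of the 1627 UMIs of dd_Smed_v6_122_0, an intestine marker, 2284 of the 2305 UMIs of dd_Smed_v6_254_0 and 1992 of the 2018 UMIs of dd_Smed_v6_66_0. Free RNA held 9.88 and 3.65 CPM of dd_Smed_v6_122_0 at 16 hpa, against 758 CPM at 0 hpa. Of the 91 contigs past the fold rule downwards, 57 were also past it without the cell with the most UMIs. GAA (dd_Smed_v6_1062_0), the lysosomal alpha-glucosidase and an intestine marker, fell to 21.0 and 17.2 CPM at 16 hpa, against 98.6 CPM at 0 hpa (edgeR, adjusted p = 8.32e-08), with 161 of its 287 UMIs at 0 hpa in 1 cell and an adjusted p of 0.00152 without that cell. FOXRED1 (dd_Smed_v6_10791_0), an assembly factor of mitochondrial complex I, fell to 3.08 and 1.84 CPM at 16 hpa, against 17.2 CPM from 46 cells at 0 hpa (adjusted p = 2.97e-04). Contig dd_Smed_v6_15614_0 fell to 0.513 and 0 CPM at 16 hpa, against 16.8 CPM from 39 cells at 0 hpa (adjusted p = 1.11e-08). The last 2 were spread over cells, and neither lost its call without the cell with the most UMIs.

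**Figure D4:**
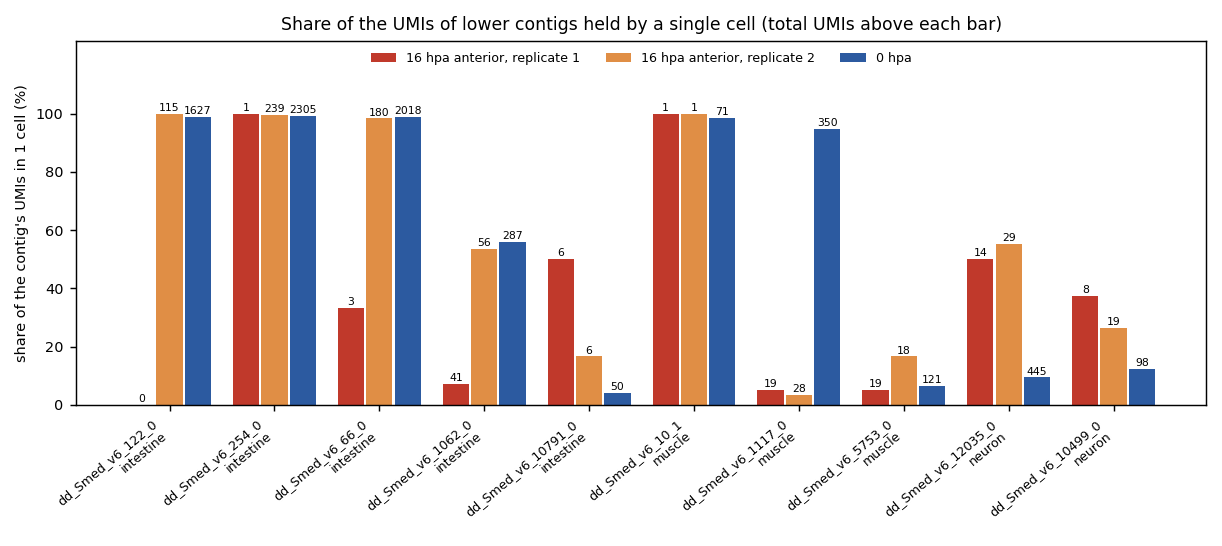
Share of a contig's UMIs that lay in its highest cell (vertical axis, %) in each of the 3 libraries, for 10 contigs that were lower at 16 hpa in intestine-like, muscle-like or neuron-like cells, with the contig's total UMIs above each bar. At 0 hpa 1 cell held nearly all of the 1627 UMIs of dd_Smed_v6_122_0, whereas dd_Smed_v6_10791_0 and dd_Smed_v6_5753_0 were spread over many cells. Those of dd_Smed_v6_12035_0 and dd_Smed_v6_10499_0 came from several cells, a small part of the neuron-like cells.

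The upper limit on genes per cell bore on neoblast-like cells. Without it they numbered 798 and 552 at 16 hpa, against 490 at 0 hpa, in clusters made anew. Their median UMIs were then 8142.5 and 5982.5 at 16 hpa, against 6577.5 at 0 hpa. With the limit these were 4757.5 and 4297, against 4684. Of the 255 contigs past the fold rule, 113 were also past it without the limit. Values below are of cells under the limit, which may have cut the libraries unequally. In neoblast-like cells, a single cluster, dd_Smed_v6_758_1 rose to 2554 and 2378 CPM at 16 hpa, against 428 CPM at 0 hpa (edgeR log2 fold change 2.53 ± 0.25, SE, adjusted p = 4.34e-20). It was counted in nearly every cell, 201 of 204 and 310 of 320 at 16 hpa, against 191 of 259 at 0 hpa. Its change was 1.77 higher on the log2 scale than in all other cells (edgeR interaction, adjusted p = 1.94e-09). Free RNA held 1289 and 2295 CPM of it at 16 hpa, against 844 CPM at 0 hpa, and the fold rule held with free RNA taken off. Contig dd_Smed_v6_17385_0 rose to 48.0 and 36.9 CPM from 15 and 26 cells at 16 hpa, against 0.905 CPM from 1 UMI at 0 hpa (adjusted p = 2.40e-10), and dd_Smed_v6_6604_0 to 52.6 and 39.2 CPM at 16 hpa, against 5.43 CPM at 0 hpa.

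Among named contigs, PCDH1 (dd_Smed_v6_10467_0), a cell adhesion protein of the protocadherin family, rose in neoblast-like cells to 38.9 and 36.9 CPM at 16 hpa, against 10.9 CPM at 0 hpa (edgeR, adjusted p = 0.00435). TDG (dd_Smed_v6_10660_0), a DNA glycosylase of base excision repair, rose to 58.3 and 58.8 CPM at 16 hpa, against 22.6 CPM at 0 hpa (adjusted p = 0.00599). NUFIP1 (dd_Smed_v6_10222_0), which acts in assembly of small nucleolar RNPs, rose to 49.2 and 41.5 CPM at 16 hpa, against 19.0 CPM at 0 hpa (adjusted p = 0.0383). In each of these 3 the anterior replicates lay close together. PRCP (dd_Smed_v6_10813_0), a lysosomal carboxypeptidase, rose to 13.7 and 15.8 CPM at 16 hpa, against 1.81 CPM at 0 hpa (adjusted p = 0.0387, and 0.0537 without the cell with the most UMIs). FOXA1 (dd_Smed_v6_10718_0), a forkhead transcription factor, was called higher although the libraries disagreed, with 8.0 and 103 CPM at 16 hpa, against 17.2 CPM at 0 hpa. *equinox* had 24.0 and 17.3 CPM in neoblast-like cells at 16 hpa, against 6.33 CPM at 0 hpa, from 16 and 22 cells at 16 hpa, against 6 at 0 hpa, past the fold rule and not called (adjusted p = 0.109).

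Of the 18 ribosome biogenesis contigs tested in neoblast-like cells 2 fell, where 2.57% of all contigs tested fell, while 10 were higher and 4 lower in both anterior libraries and their median log2 ratio was 0.08. NSA2 (dd_Smed_v6_1012_0) fell to 179 and 127 CPM at 16 hpa, against 269 CPM at 0 hpa (edgeR, adjusted p = 0.0130), and RSL24D1 (dd_Smed_v6_1059_0) to 109 and 91.2 CPM at 16 hpa, against 174 CPM at 0 hpa (adjusted p = 0.0280), both less than 2-fold in at least 1 library. SVOP (dd_Smed_v6_10613_0), a transporter-like protein of synaptic vesicles and one of the neuron markers, fell to 3.43 and 3.77 CPM at 16 hpa, against 23.5 CPM from 20 cells at 0 hpa (adjusted p = 0.00536), more than in all other cells (difference -2.52 on the log2 scale, edgeR interaction, adjusted p = 0.00845). Contig dd_Smed_v6_1040_0 fell to 57.2 and 53.5 CPM at 16 hpa, against 257.9 CPM from 148 of 259 cells at 0 hpa (adjusted p = 4.89e-16). Contig dd_Smed_v6_13055_0 fell to 3.43 and 4.52 CPM at 16 hpa, against 38.9 CPM at 0 hpa, and dd_Smed_v6_5910_0 to 2.29 and 4.52 CPM at 16 hpa, against 36.2 CPM at 0 hpa. These 3 came from at least 30 cells at 0 hpa and kept their calls without the cell with the most UMIs.

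The epidermal lineage is given only for the members it shares with the other classes and for *equinox*. *equinox* rose there to 16.04 and 23.7 CPM at 16 hpa, against 2.48 CPM at 0 hpa, from 80 and 251 cells at 16 hpa, against 24 at 0 hpa (edgeR log2 fold change 3.02 ± 0.32, SE, adjusted p = 7.72e-07, and 0.397 with equal cluster shares). RSL24D1 fell in this class too, to 71.5 and 64.7 CPM at 16 hpa, against 137 CPM at 0 hpa (adjusted p = 0.00300). OVOL1 (dd_Smed_v6_10673_0), a zinc-finger factor of epithelial cells in other animals, rose to 29.4 and 30.4 CPM at 16 hpa, against 7.72 CPM at 0 hpa (adjusted p = 3.28e-06). Cluster 2 held 1441 of the 3276 cells of replicate 2 and 11 of the 1289 cells of replicate 1 at 16 hpa, against 32 of 2223 at 0 hpa, and with equal cluster shares edgeR called 1 contig where it had called 528.

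Over all cells no single contig passed edgeR's test (smallest adjusted p = 0.508), and the following are descriptions. *equinox* had 8.79 and 15.7 CPM at 16 hpa, against 2.12 CPM at 0 hpa, from 114 and 301 cells at 16 hpa, against 40 at 0 hpa. HSPG2 had 272 and 155 CPM at 16 hpa, against 36.3 CPM at 0 hpa, and ADAMTS20 had 21.9 and 14.9 CPM at 16 hpa, against 2.90 CPM at 0 hpa. LDB3 had 2.46 and 0.325 CPM at 16 hpa, against 5.26 CPM at 0 hpa, and GAA had 3.62 and 2.60 CPM at 16 hpa, against 15.2 CPM at 0 hpa. Of the 28 contigs higher in at least 3 classes, 20 were past the fold rule over all cells, and of the 28 lower ones 14 were.

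Whether a change differed between a class and all other cells of the same libraries was tested as an interaction with library as a block. In muscle-like cells the change of 179 of 16372 contigs was higher than in other cells (1.09%) and that of 498 lower (3.04%). The counts were 28 (0.167%) and 52 (0.31%) of 16754 in neuron-like cells, 96 (0.59%) and 22 (0.135%) of 16265 in intestine-like cells, and 12 (0.0724%) and 78 (0.471%) of 16568 in neoblast-like cells. By this test more contigs changed downwards than upwards relative to other cells in the muscle-like, neuron-like and neoblast-like classes. The reverse held in the intestine-like class. The interaction was not run with equal cluster shares, with no upper limit on genes or without the cell with the most UMIs. By the fold rule, equal shares turned the balance of directions in muscle-like cells, and no upper limit turned it in intestine-like cells, as given above.

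The contigs with human names were also read by 17 lists of genes with a shared role, beside the median of all contigs tested in the class, which lay between -0.01 and 0.01 on the log2 scale. A list's median is that of its members' log2 ratios to 0 hpa, each averaged over the 2 anterior libraries. In muscle-like cells 0 members of any list were called. The synapse and channel list had a median log2 ratio of -0.74 (12 tested, 3 higher and 9 lower in both anterior libraries), the matrix list -0.53 (10 tested, 3 and 6) and the contraction list -0.48 (11 tested, 5 and 6). The replication list had a median of 0.30 (11 tested, 7 and 2) and the ubiquitin list 0.22 (11 tested, 8 and 2), and over all contigs tested 4173 were higher in both and 4033 lower in both of 9976. In neuron-like cells the replication list had a median of 0.62 (13 tested, 10 and 2) and the contraction list -0.62 (16 tested, 4 and 8), with 0 members called, and ERBB4 was the only member of any list that was called. Over all contigs tested in neuron-like cells 0.416% rose and 0.917% fell, and 4461 of 11772 were higher and 4486 lower in both anterior libraries. In intestine-like cells the ribosome biogenesis list had a median of -0.33 (18 tested, 1 and 13) with 0 called, while 2 of 9 matrix members rose, ADAMTS20 and HSPG2, with a list median of 0.65 (0.30 in replicate 1 and 0.64 in replicate 2 read alone). Over all contigs tested in intestine-like cells 0.693% rose, and 3429 of 10388 were higher and 3418 lower in both anterior libraries. In neoblast-like cells the lysosome list had a median of 0.44 (8 tested, 5 and 2), with PRCP called, a call lost without the cell with the most UMIs (edgeR, adjusted p = 0.0537), and the 8 contigs of the mitochondrial genome a median of -0.19, with 0 higher and 6 lower in both. Over all contigs tested in neoblast-like cells 1.74% rose, and 3283 of 8862 were higher and 3312 lower in both. Mitochondrial contigs made up 8.70% and 10.2% of UMIs in neoblast-like cells at 16 hpa, against 10.8% at 0 hpa. In muscle-like cells they made up 8.94% and 10.8% at 16 hpa, against 9.49% at 0 hpa.

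**Figure D5:**
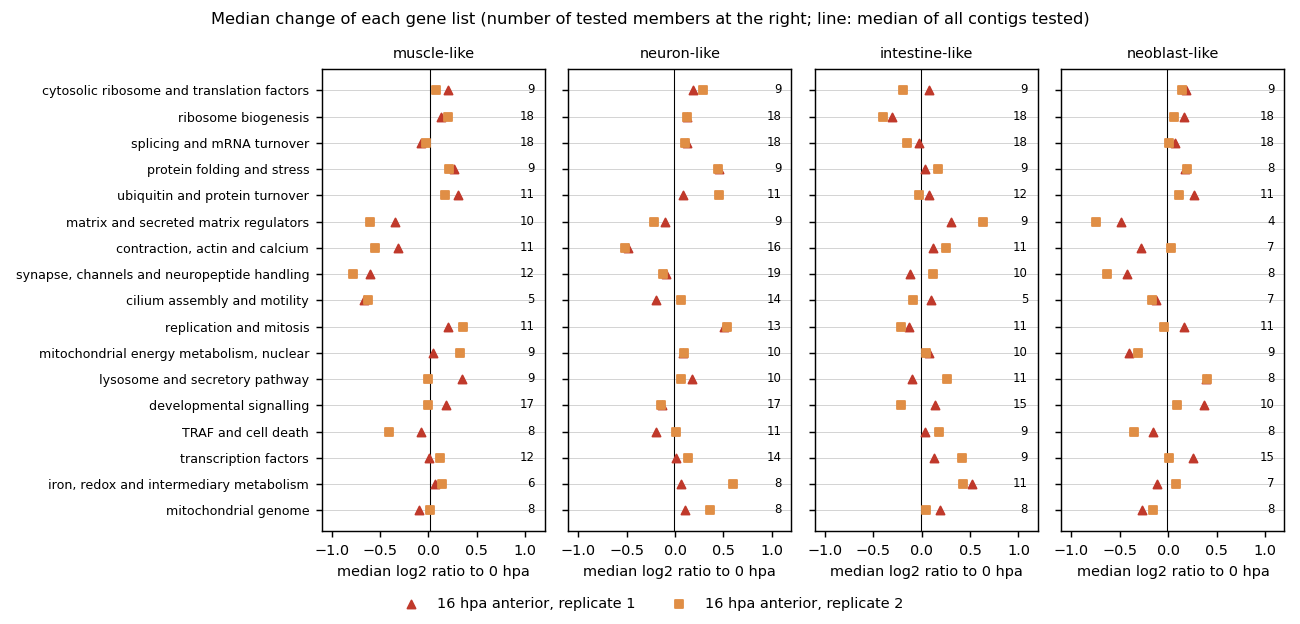
Median log2 ratio to 0 hpa of the members of 17 gene lists (horizontal axis) in each 16 hpa anterior-facing library, for muscle-like, neuron-like, intestine-like and neoblast-like cells, with the number of tested members at the right and a line at the median of all contigs tested. The synapse, matrix and contraction lists lie left of the line in muscle-like cells in both replicates, and the matrix list lies right of it in intestine-like cells.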

How the data were processed

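The deposited counts are raw UMIs per contig and barcode, not normalized, which the authors made with Cell Ranger (version 4 in the matrix header). Reads were mapped against the genome assembly Smes_g4 with an annotation of Smed_v6 genes. The authors had made it by aligning the Smed_v6 transcripts to that genome with BLAT, and had merged those at 1 locus. The matrices list 28040 contigs and 6794880 barcodes each. The authors kept cells with 200 to 2500 genes, as was done here, with the 1000 UMI minimum added. Cells were clustered with scanpy 1.11.5 and leidenalg 0.10.2 (2000 variable contigs, 11 components, 20 neighbours, resolution 1, centred and scaled within library), which gave 30 clusters. They were named "-like" from 100 marker contigs, most of them from the supplement's human names. UMIs summed per library and class were tested with edgeR 4.0.16 (TMM scaling, filterByExpr, Benjamini-Hochberg adjustment over all contigs tested), in R 4.3.3 and Python 3.11.15. DESeq2 1.42.0, RLE scaling, no filter on low counts, other cell minimums, other clusterings, cells under 10% mitochondrial UMIs and free RNA taken off (at 15.3 to 20.2 UMIs per cell, the mean of empty barcodes) were tried as alternatives. Only the edgeR test against 0 hpa was tried on simulated counts, for all cells and muscle-like cells. The clustering, the fold rule and the interaction were not. The fold rule used TMM-scaled CPM with 0.5 UMI added and at least 20 UMIs in the highest library. Lower bounds of folds against a library at 0 use 3 UMIs per library.

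Contigs named are the first 10 higher and 10 lower ones that were called and past the fold rule, ordered by the smaller of the log2 ratios, with places left filled from the fold rule, then list members that were called, those with the largest and smallest ratio of a list, contigs with a human name past the fold rule, contigs past it in at least 3 classes, *equinox* and *bmp4*; of these, the ones given here were picked to show each kind. Contigs, marker lists and gene lists were chosen with earlier results of these data known. Of 1174 supplement rows with a v4 contig, 1099 had the same number as their v6 contig. Nothing says that the replicates came from separate experiments, so that p-values measure the spread between these libraries. The 6 hpa library, sorted with calcein, was not used, and the posterior-facing library entered only the clustering and an alternative fit.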

Additional observations from a re-analysis of the deposited data

Results flagged for a closer look

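The change from 0 hpa differed between a class and all other cells of the same libraries, by edgeR's interaction test, for 179 contigs that were higher and 498 that were lower in muscle-like cells, 28 and 52 in neuron-like cells, 96 and 22 in intestine-like cells, and 12 and 78 in neoblast-like cells. The contigs below are those named whose change, by this test, differed in a class where they were past the fold rule the opposite way to another class.

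The contig dd_Smed_v6_10_1 (COLEC10) differed by -8.558 on the log2 scale in muscle-like cells, by -7.429 in neuron-like cells and by 4.41 in intestine-like cells, and at 0 hpa 70 of its 71 UMIs in muscle-like cells lay in 1 cell. The contig dd_Smed_v6_10750_1 (CA10) differed by -1.904 in muscle-like cells and by 3.726 in intestine-like cells. The contig dd_Smed_v6_58_0 differed by -6.674 in muscle-like cells, with 23 of its 27 UMIs at 0 hpa in 1 cell. The contig dd_Smed_v6_41553_0 differed by -7.551 in neuron-like cells, with 19 of its 21 UMIs at 0 hpa in 1 cell. Without the cell with the most UMIs the interaction was not recomputed.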

How the results depend on the processing

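No paired analysis was possible because 0 hpa is a single library, so that the times share fewer than 2 replicate numbers. Total counts of contigs past the fold rule stayed within 1.5 times of those reported, except in intestine-like cells (238) with cells under 10% mitochondrial UMIs (126) or resolution 0.5 (385), and in epidermal-lineage-like cells (436) with equal cluster shares (818). By direction, further counts moved by over 1.5 times. Over all cells the lower contigs (254) numbered 504 with no upper limit on genes and 431 with equal shares, and the higher ones (263) 415 under 10% mitochondrial UMIs. Lower contigs numbered 304 in muscle-like cells (508) with equal shares, 173 with no upper limit and 196 with resolution 0.5 in intestine-like cells (91), 106 in neoblast-like cells (171) under 10% mitochondrial UMIs, and 203 with no upper limit and 511 with equal shares in epidermal-lineage-like cells (120). Higher contigs under 10% mitochondrial UMIs numbered 55 in intestine-like (147) and 205 in epidermal-lineage-like cells (316). With 1 anterior library left out the rule is looser, and its counts were 1076 to 2092 over all cells, 1167 to 1676 in muscle-like, 691 to 1066 in neuron-like, 539 to 720 in intestine-like, 521 to 576 in neoblast-like and 707 to 905 in epidermal-lineage-like cells. Calls depended on the setting far more. Over all cells they numbered 78 with DESeq2, 6 with no upper limit on genes and 8 with equal cluster shares, against 0. In muscle-like cells (4) they numbered 963 with RLE scaling, 87 with DESeq2, 0 with no filter on low counts, with 500 UMIs per cell and with resolution 0.5, 1503 with a minimum of 10% of the 99th percentile of UMIs, 1353 with no upper limit on genes, 786 under 10% mitochondrial UMIs, 1027 with free RNA taken off, 695 with the posterior library in the fit, 969 with resolution 2, 520 with equal cluster shares and 803 without the top cell. In neuron-like cells (157) they numbered 53 with RLE, 29 with DESeq2, 522 with no filter, 58 with 500 UMIs, 251 with the percentile minimum, 67 with no upper limit, 15 under 10% mitochondrial, 3 with resolution 2 and 348 without the top cell. In intestine-like cells (118) they numbered 4 with DESeq2, 282 with no upper limit, 73 under 10% mitochondrial, 21 with resolution 0.5 and 216 with equal shares. In neoblast-like cells (382) they numbered 43 with DESeq2, 17 with the percentile minimum, 1099 with no upper limit and 0 under 10% mitochondrial. In epidermal-lineage-like cells (528) they numbered 180 with DESeq2, 303 with the percentile minimum, 1 with no upper limit, 876 with resolution 0.5, 65 with resolution 2 and 1 with equal shares. The interaction gave 158 calls in neuron-like cells with no filter (80 reported) and 39 in intestine-like cells with RLE (118), and RLE moved its share of upward calls from 26.4% to 36% in muscle-like and from 35.0% to 21.5% in neuron-like cells. The cause was not tested. Of the values of named contigs under these settings, 1158 kept direction and side of the threshold, 226 gained and 188 lost the call, and 4 changed direction. These were dd_Smed_v6_1933_0 in neuron-like cells without the top cell (log2 1.003), dd_Smed_v6_10625_0 (CTNNAL1) in intestine-like cells with no upper limit on genes (-0.74), dd_Smed_v6_1073_0 (TAT) there with resolution 0.5 (-0.69) and dd_Smed_v6_10394_0 (SKI) in neoblast-like cells under 10% mitochondrial UMIs (0.43). Leaving out the top cell and equal shares within classes were added after the data were seen. With 1 library at 0 hpa, a contig at 0 UMIs there is known only to lie under 3 UMIs per library.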
